A study of Mus musculus with 4 samples.

Results

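A set of 8 genes of bile duct and simple epithelium were followed in 4 mouse livers measured by RNA sequencing. They were the keratin genes Krt7, Krt8, Krt18 and Krt19, the transcription factor gene Sox9, the osteopontin gene Spp1 and the surface protein genes Epcam and Cldn7. The genes were chosen by name, by matching their Entrez numbers in the deposited transcript tables, and 8 of 8 were found among the 17543 genes listed in any liver. The livers were 2 from C57BL/6 mice homozygous for a point mutation of Ezh2, genotype Ezh2(K307R/K307R), called Ezh2 K307R here, and 2 from wild-type (WT) C57BL/6 mice. Ezh2 encodes the enzyme of Polycomb repressive complex 2, which methylates lysine 27 of histone H3, and the comparison asks how liver transcripts differ with the mutation. The labels give no age, sex, treatment or hour of collection, and name no promoter or Cre driver. They do not say that the replicates are separate animals. The p values therefore compare these 4 samples by genotype and cannot be extended to mice in general.

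Keratins are intermediate filament proteins that polymerise as pairs of a type I and a type II chain. Hepatocytes hold the pair keratin 8 (type II) and keratin 18 (type I), while bile duct cells, the cholangiocytes, add keratin 7 (type II) and keratin 19 (type I). Sox9 marks biliary cells from their first appearance in the embryo, and Epcam, Cldn7 and Spp1 are also made by duct epithelium, which is a small part of the liver's cells. In bulk tissue, fewer duct cells and less RNA per duct cell cannot be told apart.

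The deposited counts came to 18602928 and 18749610 reads in the Ezh2 K307R livers, against 19289715 and 20044832 in the WT livers. Sex-chromosome transcripts separated the genotypes: Xist had 6172 and 11201 reads in the Ezh2 K307R livers, against 6 and 6 in the WT livers, and the Y-linked genes Ddx3y, Eif2s3y, Uty and Kdm5d together had 0 and 0 reads, against 2732 and 2552. The genotype and the sex of the animals therefore cannot be told apart in any difference given here. Hepatocyte transcripts dominated each liver, with 98489 and 102760 CPM of Alb in the Ezh2 K307R livers, against 101891 and 105307 CPM in the WT livers. CPM are reads scaled to a common library size with TMM factors.

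None of the 8 genes passed the threshold for a difference between the genotypes, an adjusted p under 0.05. All 8 passed the filter on low counts and were tested. Cldn7 passed it only through the Ezh2 K307R livers, where it was higher. On CPM scaled to total counts it had 0.538 and 0.587 there, against 0.415 and 0.449 in the WT livers. Its direction is therefore no support for a difference. By edgeR's quasi-likelihood test 0 of the 8 rose and 0 fell, where 2.86% of the 12837 genes tested were called (1.39% higher and 1.47% lower). The adjusted p of the 8 ran from 0.212 for Sox9 to 0.839 for Cldn7. At an unadjusted p under 0.05 there was 1 gene of the 8, Sox9, where 16.8% of all genes tested had such a p, and DESeq2 and limma-voom called 0 and 0. Sox9, Epcam and Cldn7 had positive log2 fold changes (Ezh2 K307R over WT) and the 4 keratin genes and Spp1 had negative ones, with a median of -0.48 against 0.01 over all genes tested. With 2 livers against 2, the smallest two-sided p that an exact permutation test of one gene allows is 0.333.

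On the CPM scale the livers of the genotypes did not overlap for 7 of the 8 genes, where 48.6% of all genes tested did not overlap. Sox9, Epcam and Cldn7 were higher in both Ezh2 K307R livers (25.2% of all genes were) and the 4 keratin genes were lower in both (23.4%). Cldn7 is no support here, because it passed the filter only through the livers where it was higher. On FPKM, which also divides by transcript length, and on CPM scaled to total counts, 6 of the 8 did not overlap, because Krt18 then overlapped. The share of all genes without overlap was not computed on these other scales, so the 6 of 8 cannot be set against 48.6%.

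**Figure D1:**
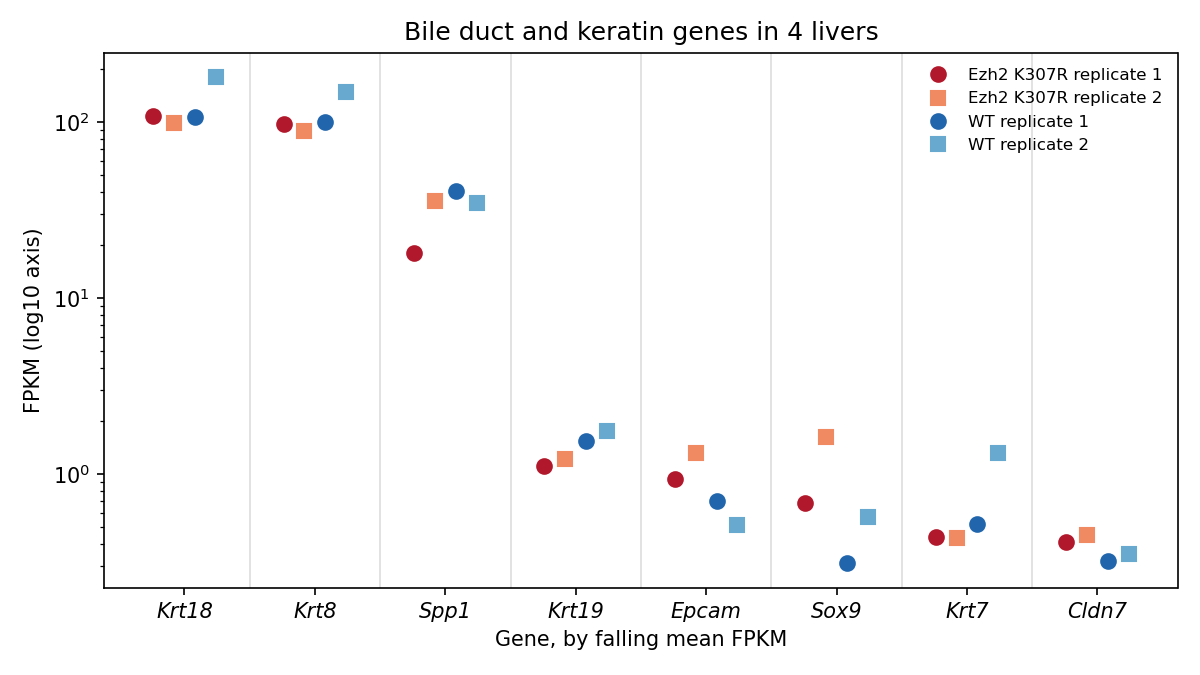
FPKM on a log10 axis (y) of the 8 genes (x, by falling mean) in each of the 4 livers, 1 point per liver, Ezh2 K307R in red and WT in blue. Krt18, Krt8 and Spp1 lie between 17.9 and 180 FPKM and the other 5 genes between 0.31 and 1.75 FPKM.

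The 8 genes fell into 2 tiers of level. By mean FPKM over the 4 livers the order was Krt18, Krt8, Spp1, Krt19, Epcam, Sox9, Krt7 and Cldn7. Krt18 and Krt8 exceeded 96.5% and 96.2% of all listed genes in mean FPKM, and Spp1 exceeded 89.8%. The other 5 genes exceeded between 31.8% (Cldn7) and 45.6% (Krt19). Within the upper tier Krt18 and Krt8 averaged 104 ± 7.13 and 93.9 ± 6.11 FPKM in the Ezh2 K307R livers, where their values did not overlap, and 144 ± 51.4 and 124 ± 34.7 FPKM in the WT livers, where they did (SD, n = 2 each). Krt18 was above Krt8 within each of the 4 livers. Within the lower tier Krt19, Sox9 and Epcam averaged 1.17 ± 0.0778, 1.15 ± 0.665 and 1.13 ± 0.269 FPKM in the Ezh2 K307R livers, which their spread does not separate. Krt7 and Cldn7, at 0.435 ± 0.00707 and 0.430 ± 0.0283 FPKM, were likewise not separated. In the WT livers Krt19 averaged 1.64 ± 0.156 FPKM, Krt7 0.915 ± 0.559, Epcam 0.605 ± 0.134, Sox9 0.440 ± 0.184 and Cldn7 0.335 ± 0.0212. Krt19 lay above Krt7 in both WT livers, and the ranges of Krt7 and Epcam, of Epcam and Sox9, and of Sox9 and Cldn7 overlapped.

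Krt8 and Krt18, the keratin pair of hepatocytes, lie next to each other on chromosome 15, on opposite strands, with 23.9 kb between their starts. Krt8 (Entrez gene 16691) spans 101996711 to 102004342 and Krt18 (16668) spans 102028216 to 102032026 in GRCm38, the assembly also called mm10. The 250 bases before each start are shown for these neighbours, whose values moved together over the livers, and for Krt7 (110310), the duct keratin gene on the same chromosome at 101412403 to 101427806. Sequences are from RefSeq on GRCm38.p6, 5′ to 3′ on the strand of the gene. Capitals mark motifs found on either strand. The TATA box was searched for with the letters TATAA, the GC box, which Sp1 binds, with the letters GGGCGG, and the CCAAT box with the letters of its name. Sites for AP-1 were searched for with the letters TGANTCA, those for TEAD factors, the partners of YAP, with the letters GGAATG, and those for the Notch partner RBPJ with the letters TGGGAA. None of the marked matches overlap. The Krt8 window is chr15:102004343-102004592 on the minus strand, the Krt18 window chr15:102027966-102028215 and the Krt7 window chr15:101412153-101412402, both on the plus strand.
Krt8: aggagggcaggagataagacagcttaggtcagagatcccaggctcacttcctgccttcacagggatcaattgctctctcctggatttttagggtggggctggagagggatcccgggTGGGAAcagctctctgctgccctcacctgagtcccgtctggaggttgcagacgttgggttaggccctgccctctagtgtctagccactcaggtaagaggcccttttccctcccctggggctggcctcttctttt
Krt18: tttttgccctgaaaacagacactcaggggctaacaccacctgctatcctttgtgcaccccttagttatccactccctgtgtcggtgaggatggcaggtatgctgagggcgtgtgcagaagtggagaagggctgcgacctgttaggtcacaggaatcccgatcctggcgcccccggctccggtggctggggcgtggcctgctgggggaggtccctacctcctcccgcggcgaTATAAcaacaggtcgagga
Krt7: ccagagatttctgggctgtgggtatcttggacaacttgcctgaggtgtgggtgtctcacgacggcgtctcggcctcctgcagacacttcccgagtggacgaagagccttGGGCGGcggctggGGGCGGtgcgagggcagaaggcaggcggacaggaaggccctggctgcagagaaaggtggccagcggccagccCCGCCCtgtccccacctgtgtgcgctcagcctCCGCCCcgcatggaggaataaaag
The Krt18 window held TATAA at positions -19 to -15 from the start, and letters that cross a start were not searched. TATAA was in 22.8% of the 32851 windows of this length in the table. The Krt8 window held TGGGAA, present in 21.6% of windows, and no other of the 6 motifs. The Krt7 window held GGGCGG or its complement 4 times, where 32.7% of windows held it at least once. Windows were listed for 6 of the 8 genes, and Krt19 and Sox9 had none.

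Krt8 had 3301 and 3031 reads in the Ezh2 K307R livers, against 3485 and 5391 in the WT livers. This was 175 and 155 CPM in the Ezh2 K307R livers and 202 and 255 CPM in the WT livers. WT replicate 2 stood above the other 3 livers, and the genotypes did not overlap. On FPKM the gap was narrow, with 98.26 in Ezh2 K307R replicate 1 against 99.97 in WT replicate 1. The log2 fold change was -0.47 (SE 0.23, 95% interval -0.99 to 0.05, edgeR adjusted p = 0.351). A processed copy, Krt8-ps, exists, and reads that match both could have been divided between them.

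Krt18 had 2826 and 2582 reads in the Ezh2 K307R livers, against 2882 and 5020 in the WT livers. In CPM these were 150 and 132 in the Ezh2 K307R livers and 167 and 238 in the WT livers. Again WT replicate 2 was the high liver. The groups did not overlap in CPM, but they did in FPKM, at 109 and 99.0 in the Ezh2 K307R livers and 107 and 180 in the WT livers. Its log2 fold change was -0.52 (SE 0.24, 95% interval -1.08 to 0.04, edgeR adjusted p = 0.332). Without WT replicate 2 it was -0.25, and that of Krt8 was -0.29.

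The ratio of the pair varied less than either gene. Krt18 over Krt8 in FPKM was 1.11 and 1.10 in the Ezh2 K307R livers and 1.07 and 1.21 in the WT livers. Among the 12836 other genes tested, ordered by the Euclidean distance of centred log2 CPM profiles over the 4 livers, Krt8 was the 24th nearest to Krt18 and Krt18 the 49th nearest to Krt8. The nearest 3 to Krt8 were Hunk, Fam76a and Pfdn4, and to Krt18 Yif1b, Prmt1 and Tmem199. Profiles over 4 libraries share depth and scaling, so these ranks describe the libraries.

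Krt7, the type II keratin of ducts, was low, with 13 and 13 reads in the Ezh2 K307R livers and 16 and 42 in the WT livers. This was 0.690 and 0.665 CPM in the Ezh2 K307R livers, against 0.926 and 1.99 CPM in the WT livers. WT replicate 2 was again the high liver, and its exact 95% Poisson interval of 30.3 to 56.8 reads did not meet that of WT replicate 1, 9.15 to 26.0 reads. The Ezh2 K307R livers had intervals of 6.92 to 22.2 reads each, which meet that of WT replicate 1. The log2 fold change was -1.11 (SE 0.53, 95% interval -2.33 to 0.11, edgeR adjusted p = 0.340). It was -0.45 without WT replicate 2, -1.55 without WT replicate 1 and -0.38 in limma on log2(FPKM + 1). Such intervals cover counting error only.

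Krt19 (Entrez gene 16669, chromosome 11 from 100140810 to 100145926), the type I keratin of ducts, had 25 and 31 reads in the Ezh2 K307R livers, against 34 and 45 in the WT livers. The CPM were 1.33 and 1.59 in the Ezh2 K307R livers and 1.97 and 2.13 in the WT livers. The groups did not overlap, and within each genotype the livers lay close together. For Krt19 the log2 fold change was -0.49 (SE 0.38, 95% interval -1.38 to 0.39, edgeR adjusted p = 0.582). Krt19 is listed with transcripts of 1396 and 934 bases. The shorter one took an estimated 29.4% and 5.06% of the reads in the Ezh2 K307R livers, against 39.4% and 15.0% in the WT livers. With 25 to 45 reads in all, the 95% Wilson intervals of these shares were 14.3% to 47.6% and 1.79% to 20.7% in the Ezh2 K307R livers, and 23.9% to 55.0% and 7.75% to 28.8% in the WT livers. These intervals leave out the error of dividing reads between transcripts. A difference between genotypes in transcript use was not detectable at this depth.

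The keratins of hepatocytes stood far above those of ducts. The summed FPKM of Krt8 and Krt18 was 134 and 114 times that of Krt7 and Krt19 in the Ezh2 K307R livers, against 101 and 107 times in the WT livers. Krt7, Krt8, Krt18 and Krt19 had their highest CPM of the 4 livers in WT replicate 2, 4 of 4. The share of all genes that were highest in that liver was not computed.

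Mesothelium, the cell layer on the liver surface, also makes keratins 7, 8, 18 and 19, and its markers were read beside them. All 7 mesothelial markers listed, Msln, Upk3b, Upk1b, Lrrn4, Wt1, Gpm6a and Bnc1, were highest in WT replicate 2. So were 8 of 15 Notch pathway genes and 1 of 11 Kupffer cell and macrophage markers. The summed CPM of the 5 that passed the filter was 8.44 and 6.24 in the Ezh2 K307R livers, against 6.94 and 20.4 in the WT livers. Msln, the mesothelin gene, had 37 and 23 reads in the Ezh2 K307R livers and 27 and 104 in the WT livers, and Gpm6a had 29 and 38, against 24 and 119. None of the 5 passed the test (median log2 fold change -0.89). The part of mesothelial RNA in the keratin values was not tested.

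**Figure D2:**
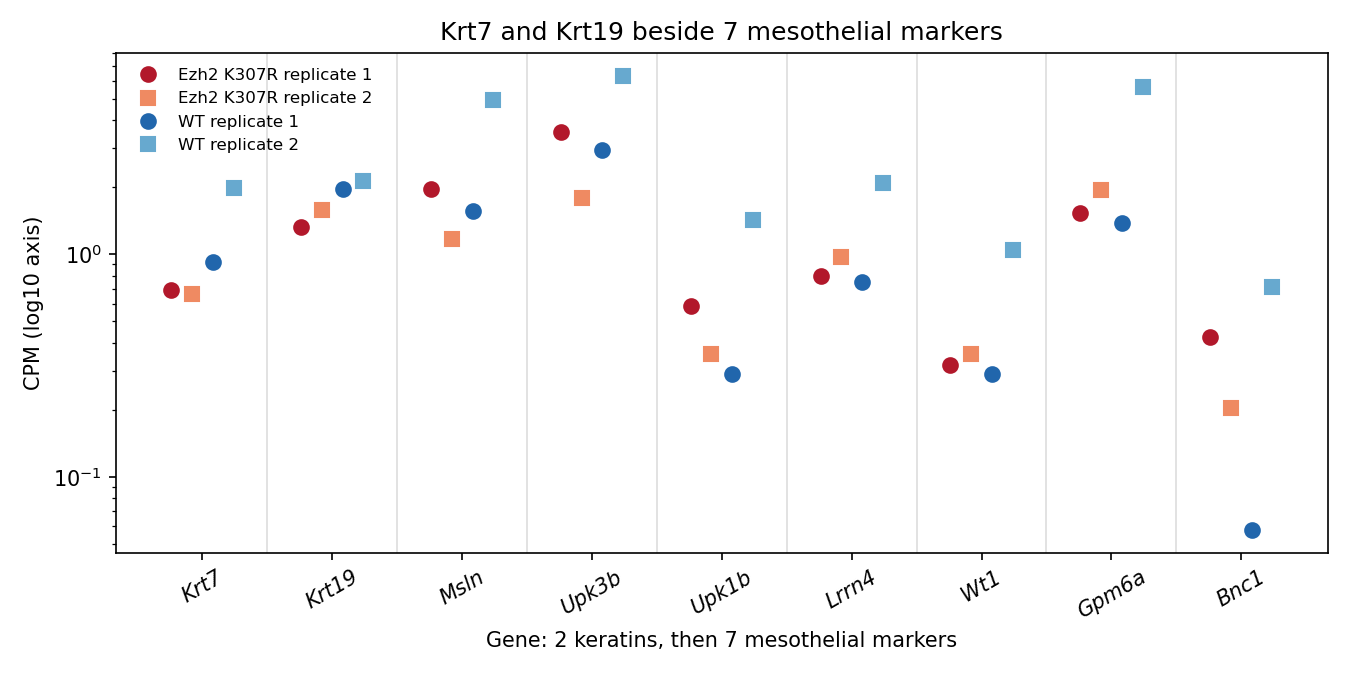
CPM on a log10 axis (y) of Krt7, Krt19 and 7 mesothelial markers (x), 1 point per liver, Ezh2 K307R in red and WT in blue. WT replicate 2 is the highest point for all 9 genes, with 1.99 CPM of Krt7 and 4.92 CPM of Msln.

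Other keratins were scarce. Of 15 further keratin genes listed, 8 had reads in any liver and 2 passed the filter, Krt10 and Krt23. Krt23, a type I keratin, had 8 and 16 reads in the Ezh2 K307R livers, against 34 and 96 in the WT livers, and its log2 fold change was -2.38 (SE 0.56, with an edgeR adjusted p of 0.0732). Its groups did not overlap, and WT replicate 2 was high here too. Krt10, of skin epidermis, had 18 and 13 reads in the Ezh2 K307R livers and 16 and 17 in the WT livers. Krt20, the keratin of gut epithelium, had 5 and 8 reads, against 1 and 4.

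Of 13 tested genes for proteins that link keratins to junctions, 0 were called (median log2 fold change 0.21). Eppk1, epiplakin, which binds keratin networks, had 13.5 and 17.1 CPM in the Ezh2 K307R livers, against 28.0 and 50.0 CPM in the WT livers (log2 fold change -1.35, edgeR adjusted p = 0.0593). Jup, plakoglobin of desmosomes and adherens junctions, had a log2 fold change of 0.58 (0.158), and the plakophilin gene Pkp3 one of 1.42 (0.180).

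Sox9 (Entrez gene 20682, chromosome 11 from 112782210 to 112787757) had 53 and 127 reads in the Ezh2 K307R livers, against 25 and 48 in the WT livers. The CPM were 2.81 and 6.50 in the Ezh2 K307R livers and 1.45 and 2.27 in the WT livers. The groups did not overlap, but the high value of Ezh2 K307R replicate 2 lay farther from replicate 1 than replicate 1 lay from either WT liver. In the test Sox9 showed a log2 fold change, at 1.31, above 0 (SE 0.47, 95% interval 0.22 to 2.40, edgeR unadjusted p = 0.0242, adjusted p = 0.212). Without Ezh2 K307R replicate 2 it was 0.59, in limma on log2(FPKM + 1), a scale that understates the change of low genes, it was 0.55, and over the 14 alternative settings the adjusted p ran from 0.0960 to 0.789. Of the 8 genes Sox9 varied most over the livers, by 5.23-fold in FPKM between the lowest and the highest liver.

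The nearest profiles to that of Sox9 were those of Enc1, Sox4 and Tenm3. Sox4, the related factor that acts with Sox9 in bile duct development in the mouse, had 0.743 and 1.59 CPM in the Ezh2 K307R livers, against 0.174 and 0.473 CPM in the WT livers. Ezh2 K307R replicate 2 was also the highest liver for 16 of the 27 further biliary genes that were listed, and for 9 of 13 epithelial adhesion genes. The same liver was the lowest for 3 of the 4 keratin genes among the 8. The share of all genes that were highest in it was not computed. Cftr, the chloride channel of cholangiocytes, was near its detection limit with 0 and 4 reads, against 2 and 3.

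Sox9 is a known target of Notch and YAP signalling in liver cells. Of 13 tested genes of the Notch pathway 0 were called (median log2 fold change 0.25), and of 16 of the Hippo and YAP pathway 0 were called (0.03). Notch2, the receptor needed for duct formation in the mouse, had 44.7 and 47.0 CPM in the Ezh2 K307R livers, against 33.9 and 30.9 CPM in the WT livers (log2 fold change 0.50, edgeR adjusted p = 0.220). Rbpj, the DNA-binding partner of Notch, had a log2 fold change of 0.36 (0.432). Ccn2, a target of YAP, had 4.67 and 4.04 CPM in the Ezh2 K307R livers and 3.99 and 10.2 CPM in the WT livers (-0.71, adjusted p = 0.462).

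Spp1 (Entrez gene 20750, chromosome 5 from 104435111 to 104441053) encodes osteopontin, a secreted protein that binds integrins and CD44. It had 476 and 948 reads in the Ezh2 K307R livers, against 1112 and 992 in the WT livers. The CPM were 25.3 and 48.5 in the Ezh2 K307R livers and 64.3 and 47.0 in the WT livers. Ezh2 K307R replicate 1 was low, replicate 2 lay between the WT livers, and the groups overlapped. The value for Spp1 was -0.59 on the log2 scale (SE 0.32, 95% interval -1.33 to 0.14, edgeR adjusted p = 0.406). It was -0.20 without Ezh2 K307R replicate 1 and -1.14 without replicate 2.

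Macrophages are another source of osteopontin, and 10 of 11 Kupffer cell and macrophage markers were highest in Ezh2 K307R replicate 1, the liver with the least Spp1. Marco was the exception, and the share of all genes that were highest in this liver was not computed. The summed CPM of the 10 tested markers was 331 and 215 in the Ezh2 K307R livers, against 163 and 197 in the WT livers, and 0 of the 10 were called (median log2 fold change 0.58). Their part in the Spp1 values was not tested. Vsig4, Adgre1 and Trem2 had the smallest p of these markers, with edgeR adjusted p of 0.055, 0.0829 and 0.135. Gpnmb and Trem2, which mark macrophages that accumulate lipid, had 13 and 2 reads and 31 and 14 reads in the Ezh2 K307R livers, against 0 and 4.46 and 4 and 6 in the WT livers. The groups overlapped for Gpnmb, which had too few reads to be tested. They also overlapped for Lgals3, another marker of the list, at 155 and 67 reads against 75 and 81. Of 9 tested osteopontin receptor genes 0 were called (median 0.50). The integrin gene Itga5 had 34.3 and 41.3 CPM in the Ezh2 K307R livers, against 20.5 and 23.7 CPM in the WT livers (edgeR adjusted p = 0.0964).

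Spp1 was listed with 3 transcripts. The main one, of 1428 bases, starts at 104435118 in GENCODE and one of 1480 bases starts at 104435121 with a longer first exon, while one of 1517 bases starts downstream at 104436192. The windows before the upstream and the downstream start are shown because the reads were divided between them. They are chr5:104434861-104435110 and chr5:104435942-104436191, both on the plus strand, with the same motifs in capitals.
Spp1 upstream: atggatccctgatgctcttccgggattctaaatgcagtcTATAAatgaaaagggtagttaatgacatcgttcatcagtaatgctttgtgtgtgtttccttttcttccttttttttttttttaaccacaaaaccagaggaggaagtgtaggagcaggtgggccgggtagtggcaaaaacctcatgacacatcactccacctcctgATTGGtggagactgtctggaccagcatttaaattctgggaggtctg
Spp1 downstream: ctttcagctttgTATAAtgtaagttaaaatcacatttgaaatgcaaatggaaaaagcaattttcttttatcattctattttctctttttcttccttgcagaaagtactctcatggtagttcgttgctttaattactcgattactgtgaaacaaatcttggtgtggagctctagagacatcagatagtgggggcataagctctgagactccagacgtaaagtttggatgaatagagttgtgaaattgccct
Positions in the upstream window count from the RefSeq gene start, 104435111, and not from the GENCODE starts. That window held TATAA at positions -211 to -207 and the CCAAT box, on the other strand as ATTGG, at -46 to -42. CCAAT was in 33.8% of all windows. The downstream window held TATAA at positions -238 to -234 from its start. The main transcript took an estimated 92.2% (95% Wilson interval 89.5% to 94.3%) and 98.5% (97.5% to 99.1%) of the Spp1 reads in the Ezh2 K307R livers, against 96.7% (95.4% to 97.6%) and 97.2% (96.0% to 98.0%) in the WT livers. The transcript from the downstream start took 3.99% of reads in Ezh2 K307R replicate 1 and was not listed in replicate 2, against 1.77% and 0.992% in the WT livers. Ezh2 K307R replicate 1, with the fewest Spp1 reads, thus had the lowest estimated share of the main transcript, while replicate 2 had the highest, so that the genotypes overlapped. The Wilson intervals treat the estimated reads as observed and leave out the error of dividing reads between transcripts.

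Epcam (Entrez gene 17075, chromosome 17 from 87635979 to 87651127) encodes an adhesion protein of biliary and progenitor epithelium. It had 36 and 51 reads in the Ezh2 K307R livers, against 28 and 21 in the WT livers. The CPM were 1.91 and 2.61 in the Ezh2 K307R livers and 1.62 and 0.994 in the WT livers. The groups did not overlap, though Ezh2 K307R replicate 1 and WT replicate 1 were close. The log2 fold change was 0.80 (SE 0.43, 95% interval -0.20 to 1.80, edgeR adjusted p = 0.412), and leaving out single livers gave 0.47 to 1.18.

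Cldn7 (Entrez gene 53624, chromosome 11 from 69964779 to 69967886), a tight junction claudin that binds EpCAM, had the fewest reads. There were 10 and 11 in the Ezh2 K307R livers, against 8 and 9 in the WT livers. Only the Ezh2 K307R livers brought Cldn7 through the filter on low counts. The exact 95% Poisson intervals, from 4.80 to 18.4 and 5.49 to 19.7 reads in the Ezh2 K307R livers and from 3.45 to 15.8 and 4.12 to 17.1 in the WT livers, all overlap. The log2 fold change of 0.30 had an interval of -0.98 to 1.58 (SE 0.55, edgeR adjusted p = 0.839), so a change was not detectable at this depth.

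**Figure D3:**
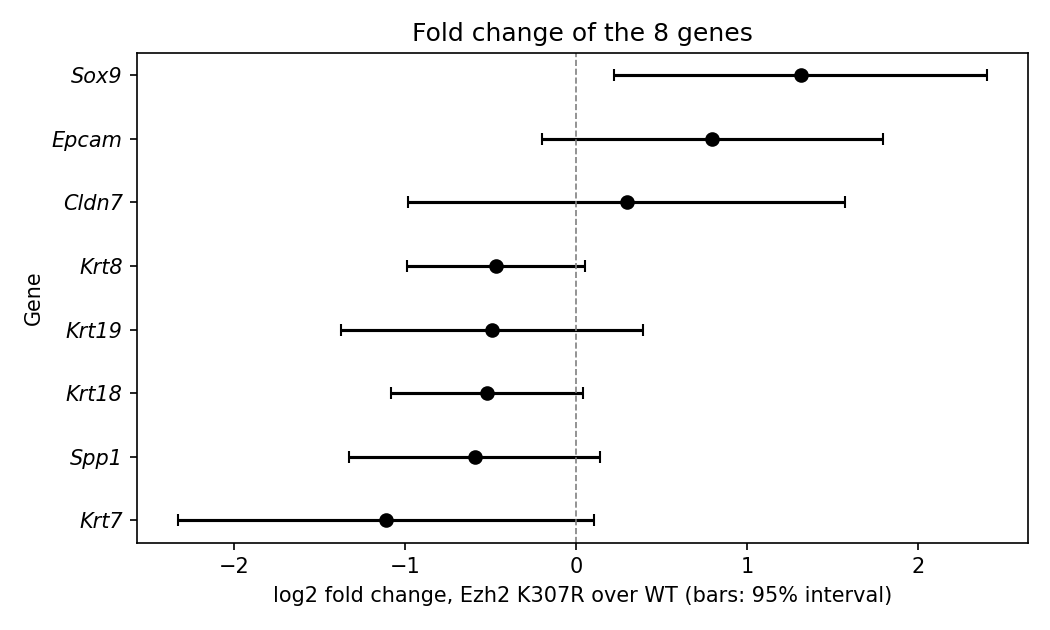
Log2 fold change of the 8 genes, Ezh2 K307R over WT (x), with 95% intervals as bars, 1 gene per row. Only the interval of Sox9, 0.22 to 2.40, lies wholly on one side of 0, and its adjusted p is 0.212.

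Genes of the same epithelia outside the 8 held 6 calls, where 2.86% of the 12837 genes tested were called. Over all 15 other lists 5.30% of the 151 tested genes were called. These lists were chosen with earlier results of these data known, so the calls are not independent of that choice. Of 22 tested further biliary genes Aqp1 rose and Slc10a2 and Tff3 fell (median log2 fold change 0.18). Aqp1, the water channel of cholangiocytes and also of endothelium, had 41.9 and 49.9 CPM in the Ezh2 K307R livers, against 19.7 and 20.5 CPM in the WT livers (log2 fold change 1.19, edgeR adjusted p = 0.0244). Slc10a2, the apical sodium-dependent bile acid transporter, had 18.8 and 23.2 CPM in the Ezh2 K307R livers, against 52.6 and 48.3 CPM in the WT livers (-1.26, adjusted p = 0.0217). Tff3, a secreted trefoil peptide, had 0.265 and 0.205 CPM in the Ezh2 K307R livers, against 3.47 and 20.9 CPM in the WT livers (-5.67, adjusted p = 0.0266). Aqp1 lost its call without Ezh2 K307R replicate 2 (adjusted p = 0.0849), Slc10a2 without replicate 1 (0.0778), and Tff3 without replicate 1 (0.0555) or 2 (0.0719). Slc10a2 also lost it in limma on log2(FPKM + 1) (0.0598) and log2(FPKM + 0.1) (0.0540), and Tff3 in limma-voom (0.137) and on log2(FPKM + 1) (0.0654, with a value of -3.73), while on log2(FPKM + 0.1) Tff3 was at -4.88 and kept its call (0.0334). Tff3 was at -3.85 without WT replicate 2 and -6.44 without WT replicate 1.

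Among junction genes the calls were Tjp3, Cxadr and Cdh1. Cdh1, E-cadherin of epithelial adherens junctions, had 22.0 and 28.7 CPM in the Ezh2 K307R livers, against 85.7 and 84.5 CPM in the WT livers. It fell by 1.75 on the log2 scale (SE 0.21, edgeR adjusted p = 0.00712) and was called in all 14 alternative settings, as 1 of 9 tested epithelial adhesion genes (median 0.04). Of 16 tight junction genes tested 1 rose and 1 fell (median 0.12). Tjp3, the scaffold protein ZO-3, rose to 28.9 and 31.7 CPM in the Ezh2 K307R livers, against 10.5 and 11.2 CPM in the WT livers (log2 fold change 1.48, SE 0.19, edgeR adjusted p = 0.0111), and it too was called in all 14. Cxadr, a junctional adhesion receptor, had 75.4 and 72.0 CPM in the Ezh2 K307R livers, against 148 and 140 CPM in the WT livers (-0.97, edgeR adjusted p = 0.0416), a call lost without WT replicate 1 (0.0629) and without Ezh2 K307R replicate 1 (0.112) or 2 (0.150), with total-count scaling (0.0554) and in limma on log2(FPKM + 1) (0.0600) and log2(FPKM + 0.1) (0.0575). Hepatocytes also express Cdh1, Tjp3 and Cxadr, and bulk values do not say which cells differed.

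**Figure D4:**
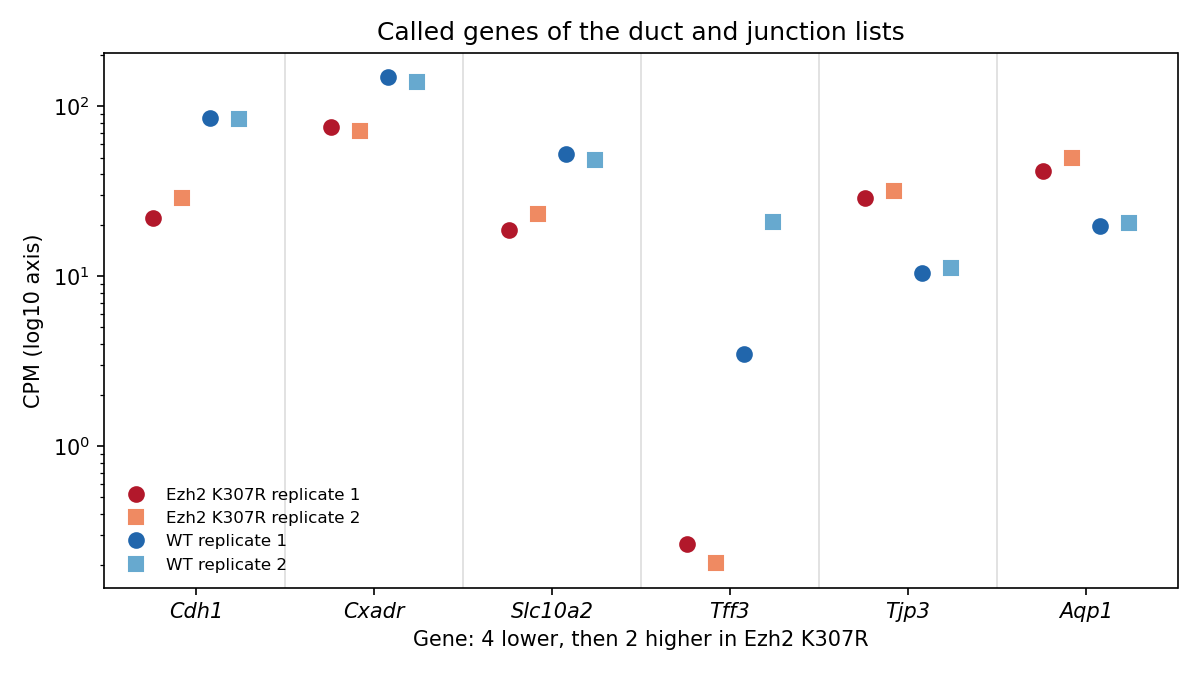
CPM on a log10 axis (y) of the 6 called genes of the biliary, tight junction and adhesion lists (x), 1 point per liver, Ezh2 K307R in red and WT in blue. Cdh1, Cxadr, Slc10a2 and Tff3 are lower in both Ezh2 K307R livers and Tjp3 and Aqp1 higher, without overlap.

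Markers of other liver cells were read in the same way. Of 10 stellate cell and fibroblast genes Dcn rose (log2 fold change 1.36, edgeR adjusted p = 0.0348) and Col1a1 fell (-2.48, 0.0365), with a list median of 0.50. Dcn lost its call without Ezh2 K307R replicate 1 (0.0747), with the replicate block (0.0506) and in limma on log2(FPKM + 1) (0.0555) and log2(FPKM + 0.1) (0.0528). Col1a1 lost its call without Ezh2 K307R replicate 2 (0.105), with the block (0.0593), with total-count scaling (0.0541), in limma-voom (0.0674) and in limma on log2(FPKM + 1) (0.148, with a value of -1.55) and log2(FPKM + 0.1) (0.105). Col1a1 was at -1.57 without WT replicate 2, in which it had 48.6 CPM against 17.5 in WT replicate 1. Of 6 endothelial, 10 hepatocyte and 9 lymphocyte and neutrophil genes tested 0 were called, with medians of 0.30, -0.09 and 0.23. Of 9 pancreas and gut genes 2 were listed, Cela1 and Vil1, and 0 were called.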

How the data were processed

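RNA of 4 flash-frozen livers was extracted with TRIzol and made into libraries by BGI, per the labels' protocols. The tools HISAT, Bowtie2 and RSEM and the build mm10 come, with no versions, per the submitters' processing notes. The sources used here do not state the strand setting or read length. Each deposited table lists RefSeq transcripts with expected counts, which are estimated counts that need not be whole and were not normalized, and FPKM, scaled by the authors to length and depth, per the file headers. Transcripts that a table leaves out were set to 0, and the smallest deposited FPKM was 0.01. RSEM divides reads that match several transcripts, so transcript shares are estimates.

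Expected counts were summed per gene, rounded and tested with edgeR 4.0.16 (quasi-likelihood, TMM, filterByExpr, genotype as the only term, 2 residual degrees of freedom) in R 4.3.3. Adjusted p are Benjamini-Hochberg values over 12837 genes, standard errors were computed as the log2 fold change divided by the root of F, and intervals are 95%. The fit moderated each gene's variability toward that of all genes tested, so p values and intervals rest on more than the 2 residual degrees of freedom. Gene names and coordinates came from RefSeq (GRCm38.p6), which named 17502 of 17543 genes, and the other 41, at 0.0377% to 0.0428% of reads, stayed in the tests. Profiles used log2(CPM + 0.5). Alternatives were other edgeR scalings and filters, DESeq2 1.42.0, limma 3.58.1 (voom, and trend on log2(FPKM + 1) and log2(FPKM + 0.1)), the replicate number as a block and each liver left out. The fit was tested on simulated data. Replicates were not one library deposited under both numbers (chi-square of 48.4 per gene in Ezh2 K307R and 88.6 in WT). Named genes are the 8 members, every called gene and up to 3 genes of smallest p per list, and the 3 nearest profiles. Others named (Cftr, Krt20, Gpnmb, Lgals3, Marco, Upk1b, Wt1, Bnc1, Lrrn4, Alb and the sex-linked genes) are list members or checks picked beyond that rule. The members and lists were chosen with earlier results of these data known. Tables and tests of single values used Python 3.11.15 with pandas 2.3.3 and scipy 1.17.1.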

Additional observations from a re-analysis of the deposited data

How the results depend on the processing

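The log2 fold changes of the 8 genes kept their sign in all 111 values over the 14 alternatives, and 0 of the 8 genes were called higher or lower in any, the smallest adjusted p being 0.0960 for Sox9 when genes with at least 1 read in any liver were tested. Cldn7 had no value under the filter at a mean of 1 CPM. With single livers left out, where the lone liver is assumed to vary like those of the other genotype, the range was 0.59 to 1.79 for Sox9, 0.47 to 1.18 for Epcam, 0.23 to 0.35 for Cldn7, -1.55 to -0.45 for Krt7, -0.63 to -0.29 for Krt8, -0.75 to -0.25 for Krt18, -0.62 to -0.37 for Krt19 and -1.14 to -0.20 for Spp1. Over the tested genes, the deviations of replicate 1 from its genotype mean had a correlation of -0.0027 between the genotypes. From 2 livers per genotype this cannot show whether the replicate numbers paired the livers. In the edgeR fit with the replicate block Sox9 was at 1.26 (adjusted p = 0.150), Krt18 at -0.50 (0.355) and 0 of the 8 were called. With the block 166 genes were higher and 181 lower in all.

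Of all genes tested, 178 were higher and 189 lower. DESeq2 called 378 and 386, testing every gene with a read called 410 and 419, and total-count scaling 188 and 124. The FPKM fits called 101 lower with an offset of 1 and 102 lower with 0.1. With single livers left out the counts were 117 to 327 higher and 94 to 393 lower. Of the 151 tested genes in the other lists, 3 were higher and 5 lower. DESeq2 gave 7 and 9, as did testing every gene with a read, 3 were lower with total-count scaling and with limma-voom, and 1 and 2 with the FPKM fits. Leaving out livers gave 3 to 5 higher and 2 to 12 lower. The replicate block ended the calls of Dcn (adjusted p = 0.0506) and Col1a1 (0.0593). The causes of these differences were not tested. Krt7, Krt19, Epcam and Cldn7 had 51 reads or fewer in each liver, and Sox9 had 25 to 127. The counting intervals of Krt7 in the 2 WT livers did not overlap.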
